A study of Mus musculus with 20 samples.

Results

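Tissue-resident macrophages are commonly marked by genes of surface receptors and, with F13a1, of an enzyme. Such a set of 9 genes was followed here through 4 groups of mouse adipose tissue. The 9 were Mrc1, Cd163, Lyve1, Folr2, F13a1, Clec10a, Timd4, Stab1 and Mgl2, chosen by symbol from the 25219 genes of the deposited table, and all 9 were found and tested in every comparison. RNA was sequenced from inguinal white adipose tissue (iWAT) and brown adipose tissue (BAT) of male mice on a mixed C57Bl/6 background, with 5 libraries for each tissue and genotype. Ai-α4KO mice carried floxed alleles of Igbp1, the gene for the phosphatase-binding protein α4, together with an Adiponectin-CreERT2 transgene, whose promoter restricts the tamoxifen-dependent Cre to adipocytes. According to the study's methods Control mice had the floxed alleles without the transgene, while the sample labels call their genotype WT. All mice, Control included, received 5 intraperitoneal injections of 100 mg/kg tamoxifen over 6 days from 2 months of age, and tissue was taken 1 week after recombination. Macrophages do not express the Cre, so the comparison asks how macrophage transcripts differ in fat whose adipocytes have lost α4. Neither the labels nor the methods say whether iWAT and BAT came from the same animals.

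Resident macrophages of fat lie along vessels and between adipocytes, where they take up dying cells, lipid, iron-bearing complexes and matrix fragments. They are maintained by the growth factor CSF1, and a part of them self-renews locally while another part is replaced from blood monocytes. The 9 genes cover several of these roles. Mrc1 (CD206, the mannose receptor), Clec10a and Mgl2 (galactose-type lectins) are C-type lectin receptors for sugars. Cd163, the receptor for hemoglobin-haptoglobin complexes, and Stab1, which clears modified lipoproteins and matrix proteins, are scavenger receptors. Lyve1 binds hyaluronan, Timd4 binds phosphatidylserine on dying cells, Folr2 binds folate, and F13a1 encodes the catalytic subunit of coagulation factor XIII, a transglutaminase. Several are not exclusive to macrophages: Lyve1, Stab1 and Mrc1 are also made by lymphatic or sinusoidal endothelium, and Mgl2 and Clec10a by a class of dendritic cells. In whole tissue, more macrophages and more RNA of a gene per macrophage cannot be told apart.

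Libraries held 24023371 to 50384446 counted reads, and the lowest count of any marker in any library was 11, for Timd4 in a Control BAT library. Igbp1 averaged 67.2 CPM (reads of a gene scaled to the size of the library, comparable between libraries but not between genes) in Control and 10.8 in Ai-α4KO iWAT, and 93.9 and 17.0 in BAT, without overlap between genotypes. Some libraries stood apart in the markers of other tissues. The summed level of 7 B cell genes was 491 and 196 CPM in Control iWAT libraries 1 and 4, against 6.12 to 8.03 in the other Control iWAT libraries and 4.67 to 13.2 in Ai-α4KO iWAT. The same libraries, 1 and 4, held 220.1 and 238 CPM of 6 T cell genes, against 7.91 to 10.7 in the other Control iWAT libraries and 14.8 to 55.0 in Ai-α4KO iWAT. The summed level of 6 skeletal muscle genes was 10890 to 36060 CPM in Ai-α4KO BAT and 759 to 7885 CPM in Control BAT. Among iWAT libraries it reached 6505 CPM in Control library 4 and 3579 CPM in Ai-α4KO library 1.

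Mgl2 and Clec10a are neighbouring paralogs on chromosome 11 with similar sequences. In the mm10 coordinates of the table Mgl2 lies at chr11:70130357-70137542 and Clec10a at chr11:70166623-70170836, both on the plus strand and 29080 bases apart. Their coding sequences of 1143 and 924 bases were 90.4% identical over 910 aligned bases, and the longest identical stretch of 183 bases exceeds the read length of 150. That stretch is shown because a read lying wholly inside it matches both genes. The lines below give it in capitals with its flanks, 5′ to 3′, from coding bases 530 to 752 of Mgl2 (ends at chr11:70136317-70136719) and 482 to 704 of Clec10a (ends at chr11:70169802-70170209), with introns left out, from the GENCODE annotation of GRCm38.
Mgl2: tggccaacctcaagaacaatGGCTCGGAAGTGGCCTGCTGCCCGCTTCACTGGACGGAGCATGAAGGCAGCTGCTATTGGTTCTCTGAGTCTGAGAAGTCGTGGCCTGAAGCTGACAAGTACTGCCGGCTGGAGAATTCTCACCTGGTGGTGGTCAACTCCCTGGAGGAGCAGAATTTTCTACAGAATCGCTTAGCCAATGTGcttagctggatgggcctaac
Clec10a: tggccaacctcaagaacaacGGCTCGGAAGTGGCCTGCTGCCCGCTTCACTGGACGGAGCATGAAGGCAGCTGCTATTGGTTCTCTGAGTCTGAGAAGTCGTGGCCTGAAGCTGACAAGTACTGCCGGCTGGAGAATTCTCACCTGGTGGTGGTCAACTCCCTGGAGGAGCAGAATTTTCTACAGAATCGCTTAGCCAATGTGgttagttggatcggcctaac
Both genes had fractional deposited counts in 16 of 20 libraries, as estimated counts can be, and how reads were divided between this pair is uncertain. Stab1 (chr14:31139017-31168641, minus strand) was fractional in all 20 libraries and overlaps Nt5dc2 on the opposite strand by 108 bases, and the sources used here do not state whether counting used strand. Mrc1 (chr2:14229414-14332023, plus strand) contains Mir511 and was fractional in 5 libraries. Cd163 lies at chr6:124304651-124330527 on the plus strand and Timd4 at chr11:46810799-46844333, also on the plus strand. Lyve1 at chr7:110850607-110862953, Folr2 at chr7:101839988-101857190 and F13a1 at chr13:36867178-37050244 are on the minus strand.

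The sequences just upstream of the start sites were searched for letters bound by macrophage transcription factors, because most of the set was called in the same direction in the comparisons that follow. RefSeq promoters (GRCm38.p6) were given for 7 of the 9 genes, 9 promoters in all, as Folr2 and F13a1 each have a pair. Those of 3 genes are printed as the 250 bases before the start, 5′ to 3′ on the gene's strand: Mrc1, whose change between genotypes was the largest, Stab1, which holds both motifs found, and Timd4, which was not called in either tissue. Capitals mark GAGGAA, the core of sites for PU.1, the lineage factor of macrophages, and TGCTGA, a half-site of the MAF factors, on either strand.
Mrc1 (chr2:14229164-14229413): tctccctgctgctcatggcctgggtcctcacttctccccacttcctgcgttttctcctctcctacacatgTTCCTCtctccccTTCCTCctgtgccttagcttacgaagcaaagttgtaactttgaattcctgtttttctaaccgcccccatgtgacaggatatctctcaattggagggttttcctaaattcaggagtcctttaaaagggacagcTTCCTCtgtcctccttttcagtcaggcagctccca
Stab1 (chr14:31168642-31168891): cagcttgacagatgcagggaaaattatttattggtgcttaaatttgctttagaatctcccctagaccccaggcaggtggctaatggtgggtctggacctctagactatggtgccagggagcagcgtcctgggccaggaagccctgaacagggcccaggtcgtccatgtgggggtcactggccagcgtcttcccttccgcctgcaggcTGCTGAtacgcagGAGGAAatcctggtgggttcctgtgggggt
Timd4 (chr11:46810549-46810798): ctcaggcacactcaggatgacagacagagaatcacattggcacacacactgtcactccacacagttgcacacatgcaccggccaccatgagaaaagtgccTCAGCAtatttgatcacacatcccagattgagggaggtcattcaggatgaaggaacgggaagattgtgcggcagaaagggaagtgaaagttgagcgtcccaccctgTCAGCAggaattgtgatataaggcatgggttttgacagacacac
GAGGAA was in 4 of the 9 marker promoters, those of Mrc1, F13a1, Mgl2 and Stab1, and in 23.3% of all 32851 RefSeq promoters of this length. TGCTGA was in 4 marker promoters as well, of Folr2 (both), Timd4 and Stab1, and in 16.1% of all promoters. The palindrome read by STAT6 downstream of interleukin-4, TTC and GAA with any 4 bases between them, was in none of the 9 and in 5.85% of all.

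In Control tissue the markers were all present, at levels that differed between depots. FPKM, the level per length of transcript, allows genes to be ranked. In Control iWAT F13a1 and Clec10a were highest, at 105 ± 23.3 and 102 ± 23.2 FPKM (SD, n = 5), and F13a1 was above Clec10a in only 2 of 5 libraries, so this pair was not separated. Mgl2 followed at 88.2 ± 14.1, Folr2 at 76.2 ± 14.2, Mrc1 at 52.0 ± 13.5, Lyve1 at 44.1 ± 7.50 and Cd163 at 36 ± 8.66 FPKM, each above the next in 4 or 5 of 5 libraries. Stab1 at 15.2 ± 6.25 and Timd4 at 8.58 ± 6.43 FPKM were lowest. Control BAT had a different order, led by Mgl2 at 19.4 ± 5.88 FPKM, which was above F13a1 (13.2 ± 8.08) in all 5 libraries. Folr2 (7.90 ± 4.44) and Mrc1 (7.79 ± 3.33), as well as Lyve1 (5.32 ± 3.16) and Stab1 (4.33 ± 0.790), exchanged order between Control BAT libraries, and Timd4 was again lowest at 0.648 ± 0.388 FPKM.

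All 9 markers were lower in Control BAT than in Control iWAT, at an adjusted p below 0.01 with at least 2-fold change in edgeR's quasi-likelihood test, where 14.7% of all 14260 genes tested were called lower. No library of one depot overlapped the other for any of the 9, while 37.6% of all genes did not overlap. The log2 difference ranged from -1.64 for Stab1 (standard error 0.253, adjusted p = 0.000282) to -3.51 for Timd4 (standard error 0.575, adjusted p = 0.000418). Timd4 had 44.3, 8.67, 8.75, 19.8 and 20.2 CPM in Control iWAT libraries 1 to 5 and 0.865, 2.78, 0.499, 2.86 and 2.07 CPM in Control BAT. Its highest value was in Control iWAT library 1, which was also highest in B cell genes, and without libraries 1 and 4 its difference was -2.80 (adjusted p = 0.00137). Clec10a differed by -3.27 (standard error 0.299, adjusted p = 1.23e-05) and Folr2 by -3.11 (standard error 0.344, adjusted p = 3.34e-05). The median over the 9 was -2.82 and that over all genes -0.0121. The 15 pan-macrophage genes, a list of general macrophage genes such as Adgre1 (F4/80), Cd68 and Csf1r, were all called lower in Control BAT too, with a median of -2.38.

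**Figure D1:**
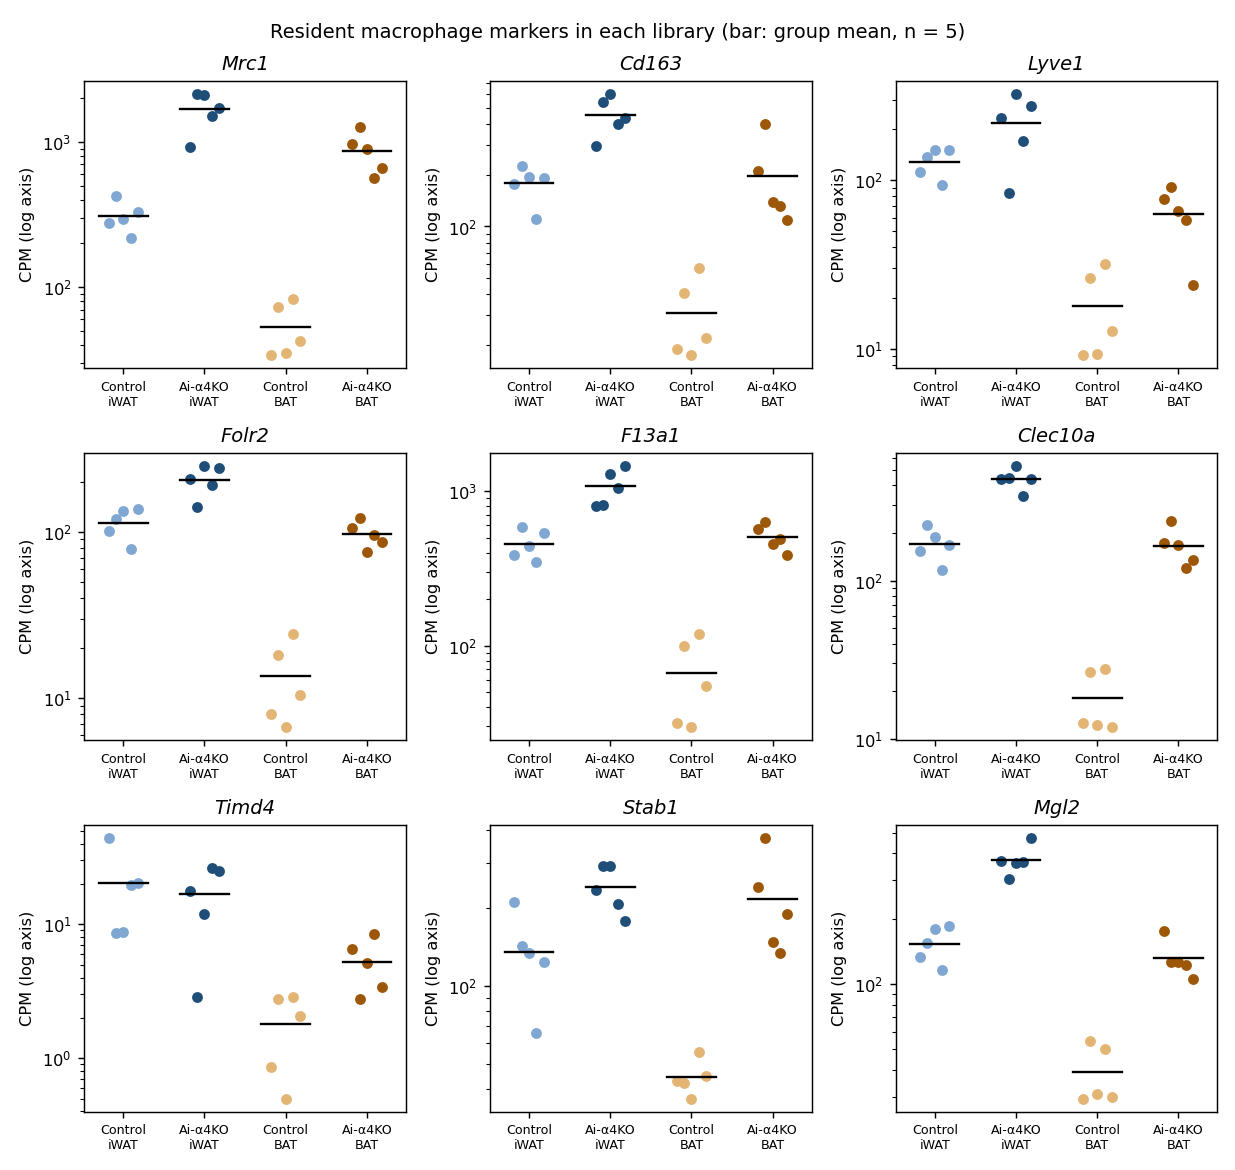
Level of each marker in every library, as CPM on a log axis (CPM from 1 TMM scaling of all 20 libraries), with 1 point per library and a bar at each group mean (n = 5). Mrc1 ran from 926 to 2138 CPM in Ai-α4KO iWAT against 218 to 424 in Control iWAT, and in BAT 7 of the 9 markers were separated without overlap between genotypes.

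In Ai-α4KO iWAT, 5 of the 9 markers were higher than in Control, where 11.3% of all 14604 genes tested were called higher. These were the lectin receptors Mrc1, Clec10a and Mgl2, the scavenger receptor Cd163 and F13a1. Lyve1, Folr2, Stab1 and Timd4 were not called. The median log2 difference of the 9 was 1.23, and that of all genes 0.0147. Levels did not overlap between genotypes for 6 of the 9, the called 5 and Folr2, and for 39% of all genes.

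Mrc1 had the largest difference. It stood at 275, 424, 293, 218 and 329 CPM in Control iWAT and at 926, 2138, 2096, 1500.5 and 1719.8 CPM in Ai-α4KO iWAT. Each Ai-α4KO library was over the highest Control library, and the log2 difference was 2.44 (standard error 0.247, adjusted p = 1.6e-05 from edgeR). Clec10a stood at 155, 224, 188, 117 and 168 CPM in Control and 442, 445, 532, 341 and 440.3 CPM in Ai-α4KO iWAT, a log2 difference of 1.36 (standard error 0.176, adjusted p = 7.33e-05). Its paralog Mgl2 went from 132.5, 154, 178, 116 and 184 CPM to 369.7, 306, 362, 364 and 473 CPM (1.29, standard error 0.157, adjusted p = 5.06e-05). For both lectins the lowest Ai-α4KO library was above the highest Control library.

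Cd163 stood at 177, 228, 196, 109.95 and 192 CPM in Control and 299, 538, 600.1, 402 and 437 CPM in Ai-α4KO iWAT, without overlap, a log2 difference of 1.33 (standard error 0.221, adjusted p = 0.000422). F13a1, the most highly counted marker in Control iWAT, went from 388, 583, 440.3, 348 and 532 CPM to 798, 812, 1285, 1049 and 1458 CPM (1.23, standard error 0.205, adjusted p = 0.000423). Without the Control libraries rich in B cell genes, 1 and 4, its difference was 0.98 (adjusted p = 0.00541), just under 2-fold, and 4 markers remained called. Folr2 had 100.4, 119, 133, 78.6 and 137 CPM in Control and 208, 141, 249, 191 and 242 CPM in Ai-α4KO iWAT. These groups did not overlap, and the difference of 0.86 (standard error 0.187, adjusted p = 0.00251) passed the p threshold but not the 2-fold minimum.

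The remaining markers overlapped between genotypes in iWAT. Lyve1 had 111, 138, 150.5, 93.3 and 150.5 CPM in Control and 234, 83.4, 325, 171 and 277 CPM in Ai-α4KO libraries (log2 difference 0.75, standard error 0.304, adjusted p = 0.0545). Ai-α4KO library 2 lay below every Control library for Lyve1, although the same library had the highest Mrc1 level of all. Stab1 had 211, 143, 134, 65.6 and 123 CPM in Control and 235, 290.4, 291, 208 and 178 CPM in Ai-α4KO iWAT (0.83, standard error 0.262, adjusted p = 0.0196). Timd4 was at 44.3, 8.67, 8.75, 19.8 and 20.2 CPM in Control and 17.6, 2.85, 11.9, 26.4 and 24.95 CPM in Ai-α4KO iWAT. Timd4 therefore showed no separation in iWAT, and its difference of -0.29 (standard error 0.571, adjusted p = 0.692) turned to 0.16 without Control library 1, to 0.33 without Control libraries 1 and 4 and to 0.53 with the B cell score as a covariate (adjusted p = 0.82, 0.661 and 0.458). For Lyve1, lymphatic endothelial genes were read alongside: their summed level over 6 genes was 30.4 to 112 CPM in Control and 59.1 to 80.0 CPM in Ai-α4KO iWAT. Pdpn, which macrophages also express, supplied 10.8% to 50.7% of this sum in Control and 73.4% to 90.3% in Ai-α4KO iWAT. It was the one gene of the 5 tested that was called (1.75, higher), and the list median was -1.10. Without Pdpn, a sum chosen after seeing the data, the other genes came to 15.6 to 95.7 CPM in Control and 5.88 to 21.3 CPM in Ai-α4KO iWAT. The highest Control sums with Pdpn, 112 and 107 CPM, were those of libraries 1 and 4. The summed level of 6 blood endothelial genes was 389 to 520.4 CPM in Control and 225 to 273 CPM in Ai-α4KO iWAT. The part of endothelium in the Lyve1, Stab1 and Mrc1 levels was not tested.

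In Ai-α4KO BAT, 8 of the 9 markers were higher than in Control BAT, where 18.2% of all 14344 genes tested were called higher. Only Timd4 was not called. Genes of other cells, adipocytes, neutrophils and T cells, also differed between these groups. The summed level of 8 adipocyte genes was 7265 to 9381 CPM in Control and 1816 to 3494 CPM in Ai-α4KO BAT, where 6 of 8 were lower, and 10350 to 13980 and 2359 to 4326 CPM in iWAT, where 7 of 8 were lower. The 5 neutrophil genes summed to 10.4 to 34.04 CPM in Control and 172 to 307 CPM in Ai-α4KO BAT, where 5 of 5 were higher, and to 14.3 to 81.0 and 103 to 393 CPM in iWAT, where 3 of 5 were higher. The 6 T cell genes summed to 2.81 to 4.93 CPM in Control and 14.55 to 57.7 CPM in Ai-α4KO BAT, where 4 of 6 were higher. In iWAT none was called, with a list median of -2.2. Without Control iWAT libraries 1 and 4, in a refit added after seeing the data, that median was 1.27 and 1 T cell gene was higher. As CPM are shares of a library, less adipocyte RNA and more macrophage RNA cannot be told apart, and the part of these cells in the marker results was not tested. The median log2 difference of the 9 was 2.63, against -0.0320 over all genes. Levels did not overlap between genotypes for 7 of the 9, all but Lyve1 and Timd4, and for 47.6% of all genes. For scale, Folr2 averaged 96.9 CPM in Ai-α4KO BAT and 113.5 CPM in Control iWAT, and Clec10a 166 and 170.3 CPM. In the same order, Mrc1 (873 and 308), Stab1 (217 and 135), Cd163 (198 and 180.5) and F13a1 (505 and 458) had higher means in Ai-α4KO BAT. Mgl2 (131 and 153), Lyve1 (63.1 and 129) and Timd4 (5.26 and 20.3) had lower means. This pair of groups was not tested.

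Mrc1 again differed most, from 33.96, 72.4, 35.03, 82.6 and 42.8 CPM in Control to 962, 1278, 899.5, 568 and 657 CPM in Ai-α4KO BAT. The log2 difference was 3.999 (standard error 0.325, adjusted p = 8.15e-07), a 16-fold change. Clec10a went from 12.6, 26.5, 12.2, 27.8 and 11.9 CPM to 172, 238, 167, 119.95 and 134 CPM (3.16, standard error 0.301, adjusted p = 2.86e-06). Mgl2 went from 29.4, 54.4, 30.95, 49.9 and 29.9 CPM to 176, 126, 125, 122 and 105 CPM. Its log2 difference of 1.71 (standard error 0.203, adjusted p = 1.67e-05) was the smallest among the 8 called markers, although its groups did not overlap.

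F13a1 went from 31.5, 99.8, 29.7, 119 and 54.5 CPM to 565, 631, 453, 488 and 385 CPM in Ai-α4KO BAT (log2 difference 2.88, standard error 0.377, adjusted p = 3.75e-05). Folr2 went from 8.06, 18.2, 6.71, 24.2 and 10.4 CPM to 106, 121, 75.4, 95.8 and 86.5 CPM (2.81, standard error 0.324, adjusted p = 1.35e-05). In both, Control libraries 2 and 4 were the highest of their group, as they were for 8 of the 9 markers. Cd163 went from 19.1, 40.4, 17.5, 56.7 and 22.2 CPM to 212, 398, 139, 131 and 109.5 CPM (2.63, standard error 0.425, adjusted p = 0.000199). Stab1 varied least among Control BAT libraries, at 43.1, 42.3, 36.7, 55.6 and 44.7 CPM, and was at 241, 374, 148, 134 and 189 CPM in Ai-α4KO BAT (2.25, standard error 0.261, adjusted p = 1.42e-05).

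Lyve1 and Timd4 overlapped between genotypes in BAT. Lyve1 had 9.15, 26.4, 9.29, 31.8 and 12.7 CPM in Control and 77.2, 91.3, 65.4, 57.8 and 23.8 CPM in Ai-α4KO BAT, where library 5 was within the Control range (1.78, standard error 0.412, adjusted p = 0.00253). With the skeletal muscle score as a covariate its difference was 1.49 (standard error 0.609, adjusted p = 0.0682), and 7 markers were called. This score, the mean log2 CPM of the muscle genes, was 6.74 to 10.05 in Control and 10.57 to 12.32 in Ai-α4KO BAT. As these ranges do not overlap, muscle content and genotype cannot be told apart in fits with this covariate. Timd4 had 0.865, 2.78, 0.499, 2.86 and 2.07 CPM in Control and 6.56, 2.755, 5.165, 8.43 and 3.41 CPM in Ai-α4KO BAT. The difference of 1.49 (standard error 0.454) missed the threshold at an adjusted p of 0.0128, passed it in DESeq2 (1.53, adjusted p = 0.00126) and without Ai-α4KO library 2 (1.65, adjusted p = 0.00847), and was 0.58 (adjusted p = 0.472) with the muscle covariate. Lymphatic endothelial genes summed to 18.3 to 30.9 CPM in Control and 39.3 to 78.3 CPM in Ai-α4KO BAT, but Pdpn supplied 49.1% to 87.3% of the Ai-α4KO sum, and without it the groups overlapped, at 11.7 to 28.2 CPM in Control and 6.90 to 39.9 CPM in Ai-α4KO BAT. The list median was 0.565, with Pdpn called higher (3.16), the lymphatic receptor gene Flt4 lower (-1.51) and the lymphatic lineage factor Prox1 at 2.15 (adjusted p = 0.0153). Blood endothelial genes summed to 706 to 994 CPM in Control and 282 to 376 CPM in Ai-α4KO BAT. The part of endothelium in the BAT results was not tested. With the muscle covariate the 7 called markers had differences of 1.58 (Mgl2, adjusted p = 0.00152) to 3.89 (Mrc1, adjusted p = 5.58e-05).

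**Figure D2:**
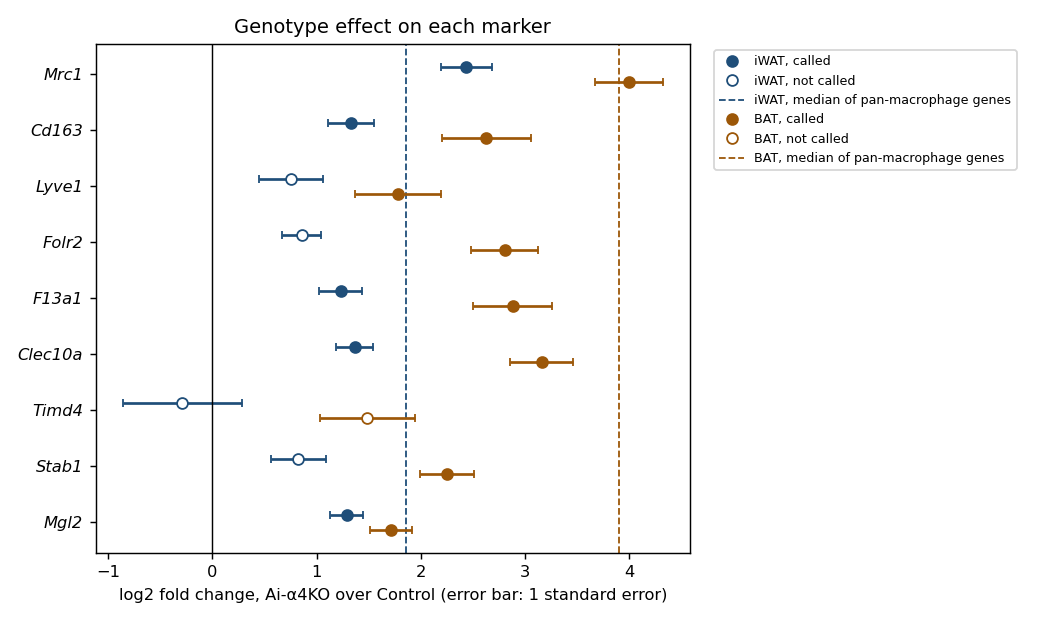
Log2 difference of each marker between Ai-α4KO and Control, in iWAT (blue) and BAT (brown), with bars of 1 standard error from edgeR (5 against 5 libraries), filled points for called genes and dashed lines at the median of 15 pan-macrophage genes in each tissue. Mrc1 is the only marker past its line in both tissues (2.44 against 1.86 in iWAT and 3.999 against 3.90 in BAT), and Timd4 is the only one below 0, in iWAT.

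The genotype difference was larger in BAT than in iWAT for all 9 markers by value. It passed the test of the difference itself, the interaction of genotype and tissue at an adjusted p below 0.01, for Folr2 and Clec10a, where 3.26% of 15230 genes were called higher in this direction. Folr2 was 6.99-fold higher in Ai-α4KO BAT and 1.81-fold higher in Ai-α4KO iWAT, and the difference of the log2 values was 1.98 (standard error 0.393, adjusted p = 0.00319). Clec10a was 8.94-fold and 2.58-fold higher, a difference of 1.82 (standard error 0.359, adjusted p = 0.00311). Mrc1 (1.59, adjusted p = 0.0141), Stab1 (1.46, adjusted p = 0.0175) and F13a1 (1.68, adjusted p = 0.0178) came next. All 3 passed in DESeq2, which called 5 markers, and the test called 4 without Control BAT library 4. Mgl2 had the smallest value, 0.45 (standard error 0.271, adjusted p = 0.264). These values rest on the same 20 libraries as the comparisons within tissues. For reference, 14 of the 15 pan-macrophage genes were called in this direction.

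Between the depots of Ai-α4KO mice, 5 of the 9 markers were lower in BAT than in iWAT (Lyve1, Folr2, F13a1, Clec10a and Mgl2), where 3.09% of 14703 genes were called lower. Groups did not overlap for 4 of the 9, Folr2, F13a1, Clec10a and Mgl2, and for 25.2% of all genes. Lyve1 differed most, by -1.75 (standard error 0.388, adjusted p = 0.0054), and Mgl2 by -1.47 (standard error 0.158, adjusted p = 0.00015). Stab1 overlapped between the depots, at 178 to 291 CPM in iWAT and 134 to 374 CPM in BAT (-0.10, standard error 0.262, adjusted p = 0.778). The number called depended on single libraries: it was 2 without Ai-α4KO iWAT library 3 or library 5 and 3 without Ai-α4KO BAT library 3, with Lyve1, Folr2 or F13a1 among those lost. With the replicate number as a block it was 3. Without Ai-α4KO BAT library 2, Mrc1 (-1.06, edgeR adjusted p = 0.00881) and Cd163 (-1.57, edgeR adjusted p = 0.000978) passed as well. DESeq2 also called Cd163 (-1.12, adjusted p = 0.0015) and Timd4 (-1.59, adjusted p = 0.0023). The median of the 9 was -1.16, compared with -2.82 between the depots of Control mice. The 2 depot comparisons share no library with each other, and each shares its libraries with the genotype comparisons.

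The order within the set differed between genotypes. Mrc1 went per length from the fifth place in both Control groups to the first in both Ai-α4KO groups, at 308 ± 88.3 FPKM in iWAT and 151 ± 54.8 FPKM in BAT (SD, n = 5). It was above the gene in the next place, Clec10a in iWAT and F13a1 in BAT, in 4 of 5 libraries. As a share of the summed FPKM of the 9, Mrc1 made up 8.75% to 11.5% in Control iWAT and 13.8% to 28.8% in Ai-α4KO iWAT, and 10.4% to 11.1% and 20% to 27.7% in BAT. The share of Lyve1 went the other way, from 7.66% to 9.17% in Control iWAT to 2.29% to 7.12% in Ai-α4KO iWAT, and from 5.72% to 8.26% to 1.81% to 4.16% in BAT. Mgl2 took 21.8% to 33.5% in Control BAT, more than in any library of the other groups, where it lay between 9.0% and 18.9%. These shares are descriptions without a test and add to 100% within a library, so a rise of one marker lowers the others.

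Ratios between markers in single libraries showed the same shifts. The ratio of Lyve1 to Mrc1 FPKM had medians of 0.874 in Control iWAT (range 0.665 to 1.05) and 0.316 in Ai-α4KO iWAT (0.0796 to 0.515), and of 0.605 (0.541 to 0.786) and 0.148 (0.0738 to 0.207) in BAT, with no overlap between genotypes in either depot. The ratio of Mgl2 to Clec10a FPKM was 1.74 to 2.46 in Control BAT and 0.512 to 1.06 across the 15 libraries of the other groups, and the Control BAT libraries lay above all of these. The shared sequence printed above bears on this ratio, since reads inside it match both genes and how they were divided is uncertain. Beside it, 6 of 8 dendritic cell genes were called higher and 1 lower in Ai-α4KO BAT, at a summed level of 38.3 to 52.3 CPM against 14.9 to 18.7 in Control BAT, and their part in the Mgl2 and Clec10a levels was not tested.

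**Figure D3:**
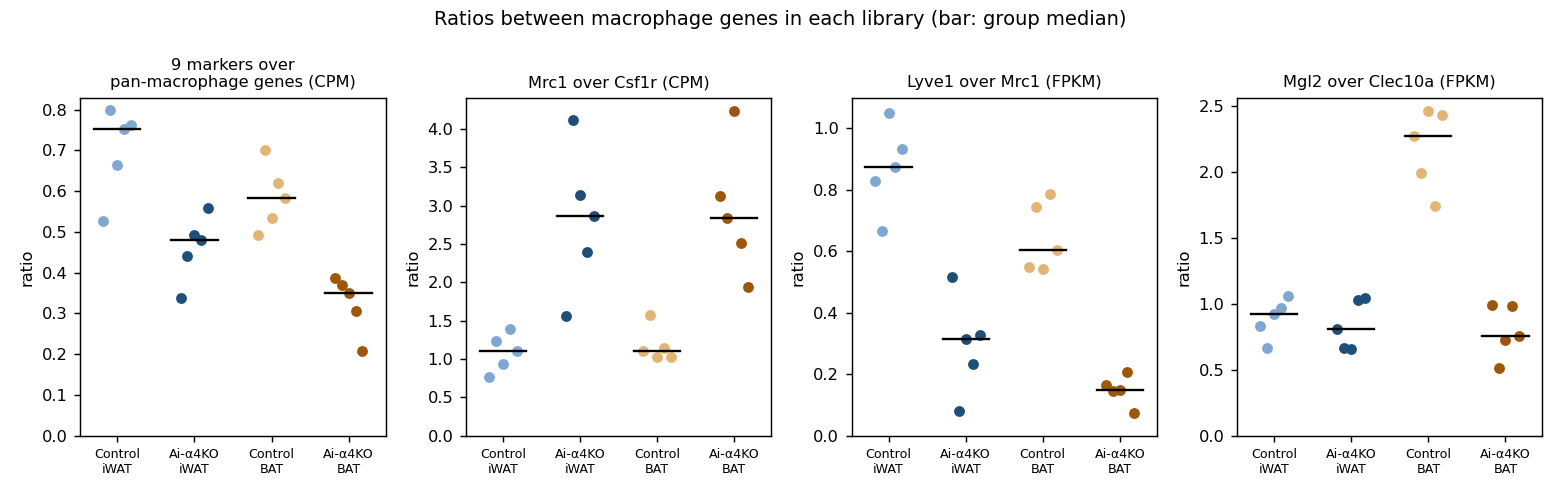
Ratios between macrophage genes in each library, with a bar at the group median: the summed CPM of the 9 markers over that of 15 pan-macrophage genes, Mrc1 over Csf1r (CPM), Lyve1 over Mrc1 (FPKM) and Mgl2 over Clec10a (FPKM). The medians of the summed markers over the pan-macrophage sum were 0.752 in Control and 0.479 in Ai-α4KO iWAT, and 0.582 and 0.350 in BAT, and Mrc1 over Csf1r was higher in all Ai-α4KO libraries of both tissues, whereas Mrc1 over Itgax, not plotted, had lower medians in Ai-α4KO (25.1 against 39.2 in iWAT and 23.3 against 32.5 in BAT).

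General macrophage genes moved further than most of the markers. All 15 pan-macrophage genes were called higher in Ai-α4KO fat of both tissues, with medians of 1.86 in iWAT and 3.90 in BAT, above 8 of the 9 markers in each. The summed marker level over the summed pan-macrophage level was 0.526 to 0.799 in Control iWAT with a median of 0.752, and 0.338 to 0.558 with a median of 0.479 in Ai-α4KO iWAT, where 1 library lay within the Control range. In BAT it was 0.492 to 0.700 in Control and 0.207 to 0.386 in Ai-α4KO libraries, without overlap. Lyz2 alone supplied 30.5% to 38.2% of the pan-macrophage sum in Control iWAT and 45.4% to 52.0% in Ai-α4KO iWAT. In an alternative chosen after seeing the data, the sum without Lyz2, the ratio was 0.757 to 1.22 in Control and 0.620 to 1.03 in Ai-α4KO iWAT, where 4 of 5 libraries lay within the Control range, and 0.785 to 1.13 and 0.418 to 0.718 in BAT, still without overlap. The ratio of Mrc1 to another gene depended on that gene. Its ratio to Csf1r, the CSF1 receptor gene, was 0.768 to 1.39 in Control and 1.56 to 4.11 in Ai-α4KO iWAT, and 1.02 to 1.58 and 1.94 to 4.23 in BAT. Csf1r itself differed less between genotypes (1.03 in iWAT and 2.74 in BAT) than the median pan-macrophage gene. Against Itgax (CD11c), which differed more (3.32 and 4.57), the medians went the other way, from 39.2 (33.1 to 59.0) in Control to 25.1 (15 to 34.3) in Ai-α4KO iWAT and from 32.5 (15.5 to 71.2) to 23.3 (11.7 to 32.6) in BAT, with overlap in both tissues. For Cd163 the ratio to Csf1r overlapped widely, with medians of 0.646 and 0.726 in iWAT and 0.619 and 0.655 in BAT.

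With libraries scaled to the pan-macrophage genes in place of all genes, 4 markers were lower in Ai-α4KO iWAT and 5 in BAT, where 85.2% and 92.4% of all genes were called lower on this scale, so a lower call says little by itself. In iWAT these were Timd4 (-2.27, standard error 0.553, adjusted p = 0.00126), Lyve1 (-1.34, standard error 0.305, adjusted p = 0.000734), Folr2 (-1.22, adjusted p = 0.000109) and Stab1 (-1.18, adjusted p = 4.8e-05). In BAT they were Timd4 (-2.09, adjusted p = 7.4e-05), Mgl2 (-2.03, adjusted p = 6.55e-08), Lyve1 (-1.88, adjusted p = 6.92e-06), Stab1 (-1.62, adjusted p = 2.4e-06) and Cd163 (-1.12, adjusted p = 0.00086). Mrc1 was 0.37 (standard error 0.253, adjusted p = 0.176) and 0.25 (standard error 0.259, adjusted p = 0.347) on this scale and did not pass in either tissue. The calls depended on the reference genes. In iWAT, scaled to Csf1r, Adgre1 and Cd68, 2 markers were lower, and scaled to the complement genes C1qa, C1qb and C1qc only Timd4 was. In BAT 4 markers were lower with either reference, as Cd163 was no longer called, at -0.92 (adjusted p = 0.00442) and -0.69 (adjusted p = 0.0367). Cd163 was also under 2-fold without Control BAT library 4 (-0.9994) and without Ai-α4KO BAT library 5 (-0.95).

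**Figure D4:**
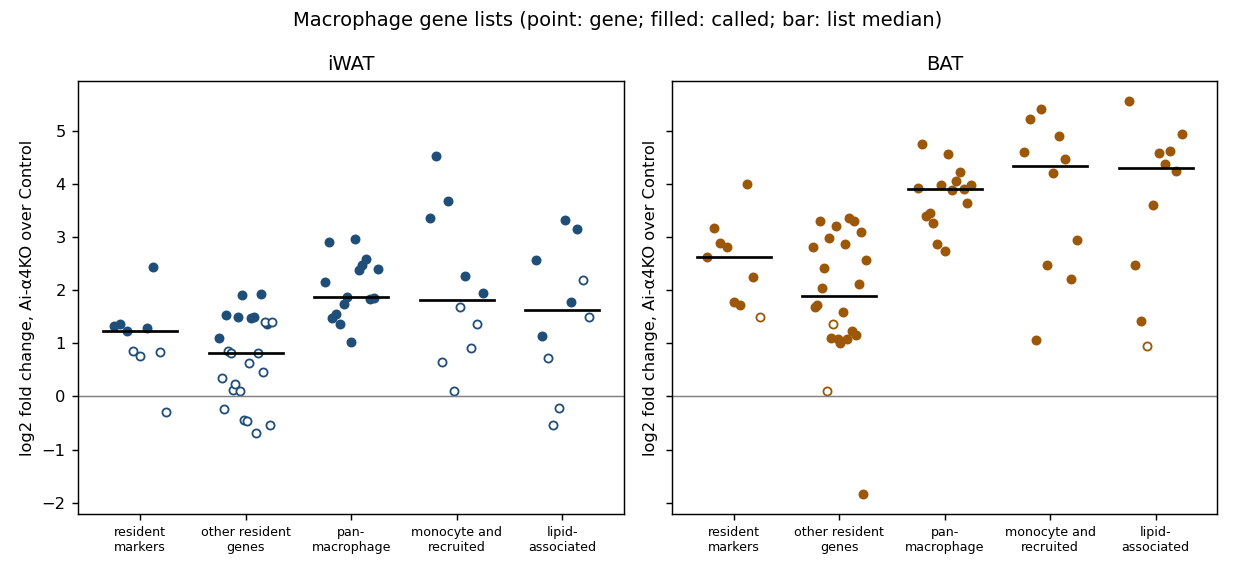
Log2 difference between Ai-α4KO and Control of every tested gene in 5 macrophage lists, in iWAT (left) and BAT (right), with 1 point per gene, filled where called, and a bar at the list median. The 9 resident markers had medians of 1.23 and 2.63, and the pan-macrophage genes 1.86 and 3.90.

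A wider list of 24 other genes of resident macrophages was examined too. In Ai-α4KO iWAT 8 were called higher and none lower, with a median of 0.816, and in BAT 21 were higher and 1 lower, with a median of 1.88. Those higher in both tissues included Pf4, a platelet-type chemokine (1.93 and 3.31), Fcrls, an Fc receptor-like scavenger gene (1.91 and 3.21), Siglec1, the sialic acid receptor CD169 (1.36 and 3.10), and Maf, a transcription factor of mature macrophages (1.47 and 2.86). Higher in BAT were Marco, a scavenger receptor (3.35), and Cd5l, a secreted survival factor of macrophages (2.98). Control BAT libraries had 2 to 28 reads of Marco and 2 to 34 of Cd5l. The iWAT values of these genes, -0.68 and 0.23, were not called. Both were highest among Control iWAT libraries in library 1, at 91.3 CPM for Marco and 18.2 CPM for Cd5l, and without that library, in a refit added after seeing the data, the values were 2.27 (adjusted p = 0.0971) for Marco and 0.93 (adjusted p = 0.0764) for Cd5l. The gene called lower in BAT was Slc40a1, the iron exporter ferroportin (-1.84, standard error 0.201, adjusted p = 8.79e-06), whose difference between tissues was also called (-1.27, adjusted p = 0.00931). Unlike the markers, Slc40a1 had more reads in Control BAT (1013 to 2712) than in Control iWAT (356 to 827). Which cells carried it was not tested. Igf1 and Gas6, a growth factor and a bridge to dying cells, rose by 1.01 and 1.08 in BAT and were at -0.47 and -0.45 in iWAT, not called.

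Genes of monocytes and lipid-associated macrophages were read beside the markers. Of 10 monocyte genes, 5 were higher in Ai-α4KO iWAT and 10 in BAT, with medians of 1.81 and 4.33, among them Ccr2, the receptor that draws monocytes into tissue (3.36 and 4.59), and Chil3 (4.52 and 5.21). Of 10 lipid-associated macrophage genes, 5 were higher in iWAT and 9 in BAT, with medians of 1.63 and 4.30. Itgax (CD11c) was called in both tissues (3.32 and 4.57), while Trem2, a lipid receptor, was called in BAT (4.94) and not in iWAT (1.49, adjusted p = 0.061). Without Control iWAT library 1, which had 16.97 CPM of Trem2 against 1.82 to 4.72 in the other Control libraries, Trem2 was called in iWAT too (2.37, adjusted p = 0.00174) and 6 lipid-associated genes were higher. Gpnmb, another gene of this list, was at -0.22 with that library and at 1.92 (adjusted p = 0.0141) without it. Without Control libraries 1 and 4, 9 of the 10 monocyte genes were higher in iWAT. All 6 proliferation genes were higher in both tissues as well.

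Of 17 listed paralogs of the markers, 11 were tested in iWAT, where 2 were higher and 1 lower with a median of 0.0294, and 9 in BAT, where 5 were higher and none lower with a median of 1.33. Without Control iWAT libraries 1 and 4, 4 paralogs were higher in iWAT and the median was 1.01. Cd44, which binds hyaluronan as Lyve1 does, was higher in both tissues (3.10 and 4.34), as was Tgm1, a transglutaminase like F13a1 (1.87 and 3.74). Tgm1 had only 3 to 14 reads in Control BAT libraries. Havcr2, a relative of Timd4, was at 0.93 in iWAT, not called, and higher in BAT at 3.53, where Control libraries had 5 to 11 reads. Stab2, the relative of Stab1 in sinusoidal endothelium, was at -1.49 in iWAT, not called. It was higher in BAT at 2.73, where Control libraries had 1 to 11 reads. Its iWAT value turned to 0.39 (adjusted p = 0.549) without Control library 1, which held 12.3 CPM of it against 0.186 to 1.71 in the other Control libraries. Its level per length was at least 17.4 times below that of Stab1 in every library. Mrc2, the relative of Mrc1 in fibroblasts, was at 0.03 and 0.58, not called in either tissue.

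The signals known to maintain or polarise resident macrophages also differed. Of 18 listed genes of the CSF1 and interleukin-4 axes, 15 were tested in each genotype comparison, of which 8 were called up and 1 down in iWAT, and 11 up and 1 down in BAT. Csf1, the growth factor itself, was higher in both tissues (1.07, adjusted p = 7.93e-05, and 2.06, adjusted p = 1.65e-05), and in iWAT it was just under 2-fold, at 0.97, without Control libraries 1 and 4. Il34, the other ligand of the CSF1 receptor, was lower in iWAT (-1.30, adjusted p = 0.00107) and at -0.81 in BAT, under the 2-fold minimum. Il33 (1.96 and 3.53), Il10 (2.51 and 5.91) and Il4ra, the interleukin-4 receptor chain (2.17 and 2.90), were higher in both. Il4 and Il13, ligands of that receptor, did not pass the filter on low counts. Il10 had only 0 to 3 reads in Control BAT libraries, so the size of its BAT difference is uncertain. Irf4, a transcription factor induced by interleukin-4 in macrophages and also active in adipocytes, was lower in BAT (-2.29, adjusted p = 0.000219) and at -1.86 in iWAT (adjusted p = 0.0122). Control iWAT library 1, which was rich in B cell genes, held 19070 reads of Irf4. The other Control iWAT libraries held 1926 to 5619 and the Ai-α4KO iWAT libraries 1044 to 3423.

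**Figure D5:**
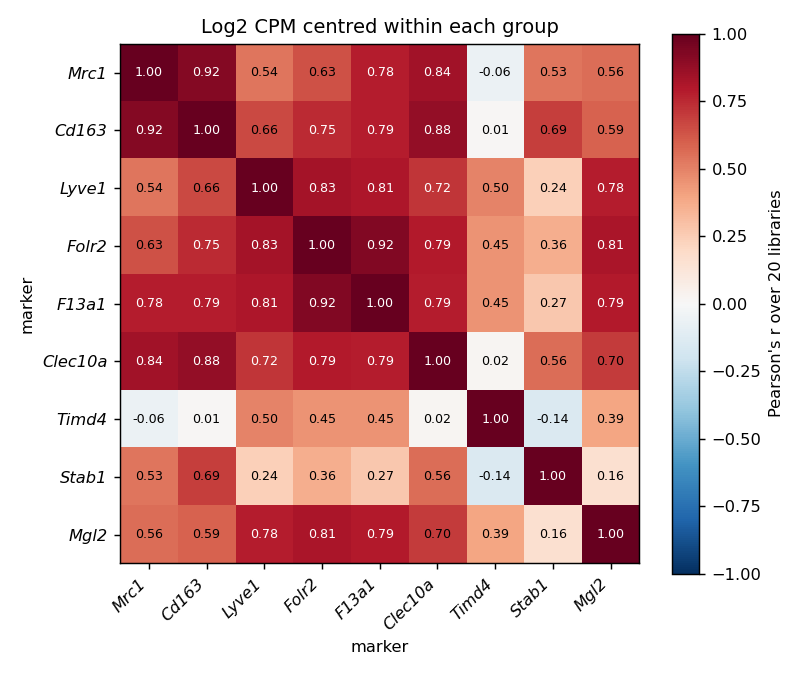
Pearson's r between each pair of markers over 20 libraries, from log2 CPM after the mean of each of the 4 groups was taken away, with the colour scale from -1 to 1. Folr2 and F13a1 were most alike (0.92), Timd4 and Stab1 least (-0.14). Pairs among the other 7 genes were at 0.54 (Mrc1 and Lyve1) or above, and Stab1 reached 0.69 with Cd163 and 0.56 with Clec10a.

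Within groups most of the markers varied together. Over the 20 libraries, with each group centred on its own mean, the median r over all pairs was 0.648, as a description without a test, since genes of a library share its depth and its tissue composition. Folr2 and F13a1 had the highest r of 0.923, then Mrc1 and Cd163 with 0.915 and Cd163 and Clec10a with 0.877. Timd4 had a median r of 0.205 with the other markers and Stab1 of 0.316, while the rest lay between 0.596 and 0.786. The genes outside the set most like its mean in this measure were Itgam (CD11b, r = 0.950), Tlr8 (0.917), Adgre1 (0.909), Gas7 (0.873) and Pla2g4a (0.870). Others among the 10 most alike were Alox5ap, Cd209f, Sept8 and Tlr7 (0.852 to 0.861). Among the lists, pan-macrophage genes had a median r of 0.662 with the markers and the other resident genes 0.483, while monocyte genes had 0.0598, lipid-associated genes 0.0618 and all 15229 genes compared 0.00290.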

How the data were processed

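Per the labels and methods, stranded mRNA libraries from 20 adipose samples were sequenced as read pairs of 150 bases, and the submitters' processing notes name bcl2fastq 2, STAR 2.5.3a and mm10. The counting tool and annotation release are not given in the sources used here. The authors deposited expected counts (76.7% of nonzero values were whole within 1e-06) and FPKM values per gene. The expected counts were rounded, filtered with filterByExpr, scaled by TMM and tested per pair of groups with edgeR 4.0.16 (R 4.3.3) quasi-likelihood tests, with Benjamini-Hochberg adjustment over all genes tested. A gene was called at an adjusted p below 0.01 and at least 2-fold change, and the interaction, over all 4 groups, by p alone. CPM came from 1 TMM scaling of the 20 libraries. Alternatives used DESeq2 1.42.0, limma 3.58.1 on log2(FPKM + 1) and log2(FPKM + 0.1), other filters and scalings, a replicate block and libraries left out. Scripts were tested on simulated data. The members and lists were chosen with earlier results of these data known. Named genes were all 9 markers, and other listed genes as examples of their lists, chosen with their values known. The labels do not say whether libraries are separate animals, so p-values measure the spread between these libraries.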

Additional observations from a re-analysis of the deposited data

Results flagged for a closer look

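The genotype difference of Folr2 and Clec10a was not the same in the 2 tissues by the test of the interaction itself. For Folr2 the log2 difference between Ai-α4KO and Control was 0.86 in iWAT and 2.81 in BAT, and the interaction was 1.98 (standard error 0.393, edgeR adjusted p = 0.00319), with a range of 1.81 to 2.30 when each of the 20 libraries was left out. For Clec10a the interaction was 1.82 (standard error 0.359, edgeR adjusted p = 0.00311), with a range of 1.70 to 2.03. Over all genes 3.26% were called for the interaction in this direction. No library stood apart by Dixon's test in any of the 36 sets of 5 values, 1 for each marker and group.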

How the results depend on the processing

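With each library left out in turn, 5 markers were called higher in Ai-α4KO iWAT each time, 8 to 9 in BAT, and 9 lower in Control BAT than Control iWAT. Between the Ai-α4KO depots the count of 5 ranged from 2 to 7, and it was 3 with the replicate block. Samples of the same number had correlations of -0.396 to 0.284, which cannot show whether they came from the same animal. The numbers were not read as pairs, and the replicate block changed no other count of called markers. The interaction count of 2 ranged from 2 to 4 with libraries left out, and was 5 in DESeq2, 5 with at least 10 counts in every library and 4 with limma on log2(FPKM + 0.1). Relative to macrophage genes in iWAT, the count of 4 markers lower became 2 scaled to Csf1r, Adgre1 and Cd68 and 1 scaled to C1qa, C1qb and C1qc. Timd4 in iWAT (-0.29) turned to 0.33 without Control libraries 1 and 4 and to 0.53 with the B cell covariate, and ranged from -0.52 to 0.16 with single libraries left out. Stab1 between the Ai-α4KO depots ranged from -0.38 to 0.02, with 0.0057 without Ai-α4KO BAT library 3 and 0.022 without library 4. The cause was not tested. Outside the fits with a single library left out, but with that without Control iWAT libraries 1 and 4, 558 results for single markers kept their direction and side of the threshold, 22 came to pass it, 12 no longer passed it and 2 changed direction. Timd4 had the fewest reads, 11 to 81 in Control BAT.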
